A study of Mus musculus with 6 samples.

Results

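The miR-17/miR-92a and miR-106b-25 clusters are paralogous groups of miRNAs, each cut from a single primary transcript (the first is named here by its end members, miR-17 and miR-92a). Their 10 main arms were followed here in extracellular vesicles shed by apoptotic osteoblasts, the bone-forming cells. The 10 members were taken by name from 1528 annotated miRNA entries among 1712 entries in all, and each was found. They are 6 arms of miR-17/miR-92a (mmu-miR-17-5p, mmu-miR-18a-5p, mmu-miR-19a-3p, mmu-miR-20a-5p, mmu-miR-19b-3p and mmu-miR-92a-3p) and 4 of miR-106b-25 (mmu-miR-106b-5p, mmu-miR-106b-3p, mmu-miR-93-5p and mmu-miR-25-3p), written below without the species prefix. The knockout group holds 3 libraries from Prx1cre;SIRT6f/f mice, which carry floxed alleles of the deacetylase gene Sirt6 and a Cre that the Prx1 enhancer switches on in limb mesenchyme. The control group holds 3 libraries from SIRT6f/f mice, which carry the same floxed alleles without Cre. Sirt6 mRNA is not part of a small RNA table, so the deletion itself was not checked. In both groups osteoblasts were made apoptotic, kept in serum-free medium for 48 h, and their vesicles pelleted by ultracentrifugation. Age, and whether replicates came from separate animals or cultures, are not given in the labels, so p-values cover only the spread among these 6 libraries, part or all of which may be technical.

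A miRNA finds its target mRNAs mainly through its seed, the bases near its 5′ end, so arms with the same seed share many predicted targets. In mouse, miR-17/miR-92a is a growth-promoting cluster needed for normal development of the skeleton, lung, heart and B cells. Its miR-17 seed group is known to repress the cell cycle inhibitor Cdkn1a. Members of both clusters restrain the pro-apoptotic gene Bcl2l11 (Bim). miR-106b-25 is transcribed with Mcm7, a subunit of the helicase that opens replication origins.

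The sequences below show why the members fall into seed groups. They are the RefSeq mature sequences on GRCm38.p6, read 5′ to 3′, with the seed (bases 2 to 8) in capitals; all 10 members matched an entry. The miR-17 seed group holds 4 members:
miR-17-5p: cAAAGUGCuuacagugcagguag
miR-20a-5p: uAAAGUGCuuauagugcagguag
miR-93-5p: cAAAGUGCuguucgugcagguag
miR-106b-5p: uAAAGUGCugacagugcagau
The miR-19 seed group holds 2 members:
miR-19a-3p: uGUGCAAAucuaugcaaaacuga
miR-19b-3p: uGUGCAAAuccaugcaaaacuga
The miR-25 seed group holds 2 members, and miR-92b-3p, which is no member, is shown because it has the same seed:
miR-25-3p: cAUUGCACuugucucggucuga
miR-92a-3p: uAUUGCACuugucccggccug
miR-92b-3p: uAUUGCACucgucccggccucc
miR-18a-5p and miR-106b-3p share a seed with no other member:
miR-18a-5p: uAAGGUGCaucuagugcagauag
miR-106b-3p: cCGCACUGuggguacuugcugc
Counted from 1 at the 5′ end, miR-19a-3p and miR-19b-3p differ at a single base (U11C, the base of miR-19a-3p first), and miR-17-5p and miR-20a-5p at 2 bases (C1U and C12U). The sources used here do not say how the authors assigned reads that fit several such relatives, so levels of near-identical arms are uncertain to that extent.

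The miR-17/miR-92a hairpins lie within 836 bases of mouse chromosome 14 (GRCm38, 115043671 to 115044506, plus strand), all inside an exon of the long non-coding host gene Mir17hg (115042879 to 115046727). The miR-106b-25 hairpins lie within 498 bases of chromosome 5 (138165321 to 138165818, minus strand) inside Mcm7. The miR-106b hairpin is intronic in both annotated Mcm7 transcripts that span it, and those of miR-93 and miR-25 are intronic in 2 transcripts and exonic in 1. The mature miR-19b-3p and miR-92a-3p sequences are each also encoded on chromosome X, in the third paralog, miR-106a-363 (52741693 to 52742567, minus strand). Their reads cannot be split between chromosomes 14 and X.

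The values are RPM, reads scaled so that every library sums to 1000000. A read covers a whole mature miRNA, so RPM carries no length scaling. Recovered depth was 1608276 to 1838239 reads in the knockout libraries and 1352045 to 1627705 in the control libraries, and 3 reads, taken as the floor, correspond to 1.63 to 2.22 RPM. Ordinary annotated miRNAs, meaning those outside a list of possible ribosomal or transfer RNA fragments, took 29.8% to 40.3% of reads in the knockout and 47.7% to 52.6% in the control libraries. Knockout replicate 3 had the lowest share. On a scale with a fixed total, fewer molecules of a miRNA cannot be told apart from more of other RNA, nor from fewer vesicles of a cell type. Among markers of the labelled donor lineage, 12 of 13 mesenchymal miRNAs were listed and summed to 80871 to 146926 RPM in the knockout and 193748 to 221829 RPM in the control libraries. Of 10 blood cell markers, 9 were listed, with 270.4 to 496 RPM in the knockout and 632 to 893 RPM in the control libraries. Of these, miR-142a-3p (0.753 RPM in the knockout and 0.721 RPM in the control group) and miR-223-3p (0.979 and 2.21 RPM) were near the floor. The other arm of the miR-142a hairpin, miR-142a-5p, was well above it (17.3 and 38.5 RPM). So were miR-150-5p (13.6 and 24.7 RPM) and the erythroid miR-451a (38.8 and 70.8 RPM). miR-155-5p lay the other way (6.82 and 3.404 RPM). Most of the blood marker reads came from miR-486b-5p (282.1 and 570.5 RPM, of mean sums of 384.3 and 759.3 RPM). Among the 12 mesenchymal markers listed, only miR-145a-5p had a higher mean in the knockout (1069.6 and 996.7 RPM). Both endothelial miR-126a arms summed to 15.2 to 26.7 RPM in the knockout and 47.9 to 63.6 RPM in the control libraries. Of 6 epithelial markers, all were listed and summed to 16.9 to 31.1 RPM in the knockout and 21.4 to 25.2 RPM in the control libraries. The lowest were miR-429-3p (means of 0.984 RPM in the knockout and 0 in the control group) and miR-205-5p (0 and 0.481 RPM), with group means below the floor. The part of other cell types in the values below was not tested.

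The clusters were a small and very uneven part of the vesicle miRNAs. All 10 members together took 0.125% ± 0.0421 of reads in knockout and 0.203% ± 0.0206 in control vesicles (SD, n = 3 each). miR-25-3p and miR-92a-3p, which share a seed but come from different clusters, supplied 82.0% of the members' reads in knockout and 86.9% in control vesicles. By mean over the 6 libraries they ranked 52 and 56 among 1520 ordinary annotated miRNAs. miR-93-5p followed at 79.4 RPM, then miR-106b-3p at 73.9 RPM and miR-20a-5p at 51.7 RPM. miR-19b-3p had 14.3 RPM, miR-17-5p 10.6 RPM, miR-106b-5p 9.56 RPM and miR-19a-3p 2.87 RPM. miR-18a-5p was at 0 in 5 of 6 libraries and at 1.48 RPM, or 2 reads, in control replicate 2, below the floor, so it was not tested and no fold is given.

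Of the 9 steps between neighbours in this order, 2 held in every library. On the log2(RPM + 1) scale, miR-92a-3p exceeded miR-93-5p by 2.90 ± 0.38 (SD over 6 libraries), and miR-20a-5p exceeded miR-19b-3p by 1.85 ± 0.66, each in 6 of 6 libraries. The neighbours miR-93-5p and miR-106b-3p (0.20 ± 0.45), miR-106b-3p and miR-20a-5p (0.42 ± 0.48), miR-19b-3p and miR-17-5p (0.35 ± 0.70), and miR-17-5p and miR-106b-5p (0.16 ± 0.33) were within their spread. The steps down to the lowest arms, from miR-106b-5p to miR-19a-3p (1.60 ± 1.06) and from miR-19a-3p to miR-18a-5p (1.52 ± 1.04), held in 5 of 6 libraries each. miR-25-3p exceeded miR-92a-3p in 5 of 6 libraries, by 0.28 ± 0.19.

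**Figure D1:**
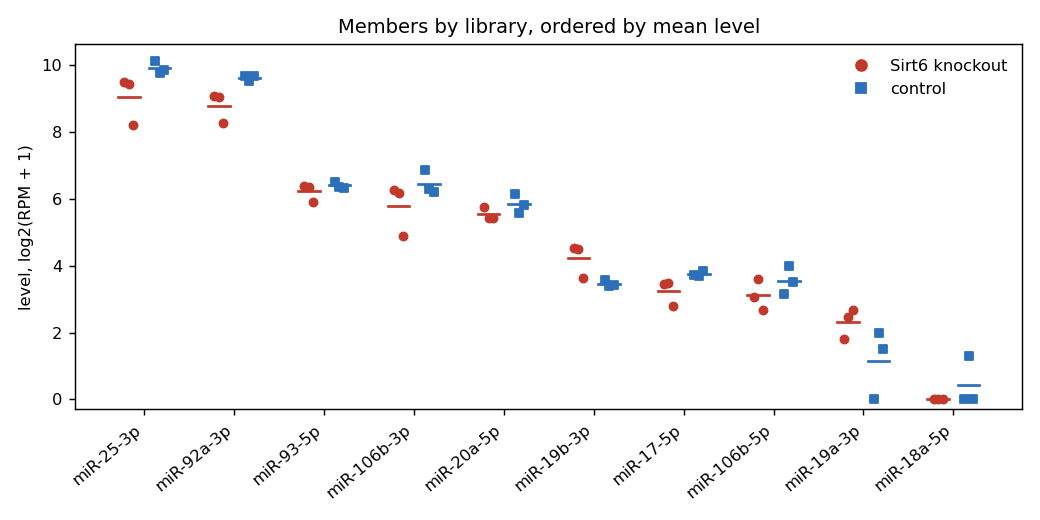
Level of each member, as log2(RPM + 1), by library, with Sirt6 knockout libraries as red circles and control libraries as blue squares, and group means as bars. miR-25-3p and miR-92a-3p lie far above the rest, and miR-19b-3p is the only member with all 3 knockout libraries above all 3 control libraries.

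In the comparison of knockout with control vesicles, 9 of 10 members passed the filter on low values (3 or more libraries at 1 RPM or above), and 0 passed the test in either direction. Log2(RPM + 1) values were tested 2-sided with limma, its prior variance following the mean level, and p-values were adjusted by Benjamini-Hochberg over 1114 entries. Of these entries 4.85% passed an adjusted p of 0.05, 2.69% lower and 2.15% higher in the knockout. Log2 fold changes on this scale understate changes of low entries. Of the 9, 7 lay below 0 and 2, the miR-19 arms, above 0. The median over the 9 was -0.42, beside -0.27 over all 1114 entries and -0.60 over the other 259 ordinary annotated miRNAs that averaged 10 RPM or more. At an unadjusted p under 0.05 there were 3 members, miR-25-3p, miR-92a-3p and miR-106b-3p. In this fit a member's own spread hardly entered its SE. Without the mean-variance trend, their unadjusted limma p-values were 0.107, 0.0825 and 0.208. The groups did not overlap for 3 of the 9 on the lower side (19.3% of all tested entries) and for 1 on the higher side (6.28% of all tested entries). Among the 259 other ordinary miRNAs, 207 lay below 0. The groups did not overlap for 138 of the 259 on the lower side and for 21 on the higher side, so lower values without overlap were common at such levels.

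The miR-25 seed group held the members with the lowest p-values, both lower in the knockout. miR-25-3p had 722, 699.9 and 297 RPM in knockout vesicles, against 1123, 875 and 923 RPM in control vesicles. Every knockout library lay below every control library, and knockout replicate 3 lay far below the other knockout libraries. The group means were 573 ± 239 and 974 ± 132 RPM (SD, n = 3 each), with a log2 fold change of -0.86 ± 0.29 (SE, 95% interval -1.43 to -0.30, limma adjusted p = 0.0520). miR-92a-3p, the last arm of miR-17/miR-92a, had 537 and 526 RPM in the first 2 knockout replicates and 308 RPM in the third, against 826, 733 and 821 RPM in control vesicles. Again the groups did not overlap. Its log2 fold change was -0.84 ± 0.29 (95% interval -1.40 to -0.27, limma adjusted p = 0.0640). miR-25-3p passed when knockout replicate 1 (-1.08, limma adjusted p = 0.0408) or knockout replicate 2 (-1.06, limma adjusted p = 0.0369) was left out, and miR-92a-3p when knockout replicate 3 was (-0.57, limma adjusted p = 0.0464). With knockout replicate 3 left out, miR-25-3p had -0.45 (limma adjusted p = 0.146). It did not pass with any control library left out (limma adjusted p from 0.128 to 0.281). For miR-92a-3p no other library left out gave a pass (limma adjusted p from 0.0567 to 0.268). Without the mean-variance trend, neither passed (limma adjusted p = 0.454 for miR-25-3p and 0.436 for miR-92a-3p). Their 95% intervals then included 0 (-1.95 to 0.23 for miR-25-3p and -1.80 to 0.13 for miR-92a-3p).

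The ratio of these arms to each other overlapped between the groups. The log2 ratio of miR-92a-3p to miR-25-3p was -0.26 ± 0.27 in knockout and -0.29 ± 0.14 in control vesicles (SD, n = 3 each; exact permutation p = 0.8). miR-92b-3p, which comes from a hairpin outside the clusters, had 55.3, 43.5 and 28.8 RPM in knockout vesicles, against 119.7, 71.0 and 80.5 RPM in control vesicles. It fell by 1.08 on the log2 scale (SE 0.35, limma adjusted p = 0.0456), and the groups did not overlap. This call was lost in 14 of 17 alternatives, which were applied to this entry after its values were seen: it held without knockout replicate 1 (limma adjusted p = 0.0425) but with no other library left out (limma adjusted p from 0.0641 to 0.315), and not after rescaling to ordinary annotated miRNAs (-0.62, limma adjusted p = 0.252). miR-32-5p, with the same seed, was at 0 to 2.82 RPM in knockout and 0 to 1.44 RPM in control vesicles, too low to describe further. In total the 2 members of the miR-25 seed group had 1030 ± 369 RPM in knockout and 1767 ± 172 RPM in control vesicles, a ratio of 0.583, or 0.784 when libraries were scaled to ordinary annotated miRNAs.

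The miR-17 seed group differed less. miR-93-5p, its most abundant arm here, had 83.3, 81.9 and 59.3 RPM in knockout vesicles, against 90.8, 81.4 and 79.9 RPM in control vesicles. These groups overlapped, and the log2 fold change was -0.18 ± 0.34 (SE, 95% interval -0.84 to 0.48, limma adjusted p = 0.796). miR-20a-5p had 52.9, 42.4 and 41.9 RPM in knockout vesicles, against 70.7, 47.3 and 55.3 RPM in control vesicles, also with overlap (-0.32, 95% interval -1.03 to 0.39, limma adjusted p = 0.691). miR-17-5p, the namesake of the group, had 9.95, 10.2 and 5.98 RPM in knockout vesicles, against 12.3, 11.8 and 13.5 RPM in control vesicles. Its groups did not overlap, but at 11 to 22 reads a library the interval was wide (-0.51, 95% interval -1.53 to 0.50, limma adjusted p = 0.659). miR-106b-5p had 7.46, 11.3 and 5.44 RPM in knockout vesicles, against 7.93, 14.8 and 10.4 RPM in control vesicles, with overlap (-0.42, limma adjusted p = 0.720). In total this seed group had 137 ± 21.7 RPM in knockout and 165 ± 14.3 RPM in control vesicles, a ratio of 0.830 that turned to 1.14 when libraries were scaled to ordinary annotated miRNAs.

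The miR-19 seed group lay the other way. miR-19b-3p had 22.4, 21.5 and 11.4 RPM in knockout vesicles, or 36, 38 and 21 reads, against 10.8, 9.62 and 9.83 RPM in control vesicles, or 15, 13 and 16 reads. Every knockout library was above every control library, knockout replicate 3 by a small margin. The means were 18.4 ± 6.08 and 10.1 ± 0.640 RPM (SD, n = 3 each), and the log2 fold change was 0.75 ± 0.48 (SE, 95% interval -0.19 to 1.70, limma adjusted p = 0.401), so the difference did not pass. miR-19a-3p was near the floor, with 4, 8 and 10 reads in knockout and 0, 4 and 3 reads in control libraries. Its RPM values were 2.49, 4.52 and 5.44 in knockout vesicles, against 0, 2.96 and 1.84 in control vesicles, with overlap (1.15, 95% interval -0.30 to 2.61, limma adjusted p = 0.405). The value was 0.57 without control replicate 1, the library at 0, and 0.48 with a pseudocount of 5. The 2 arms summed to 22.6 ± 4.98 RPM in knockout and 11.7 ± 0.879 RPM in control vesicles, a ratio of 1.93, and their share of the members' reads was 1.87% in knockout and 0.581% in control vesicles.

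**Figure D2:**
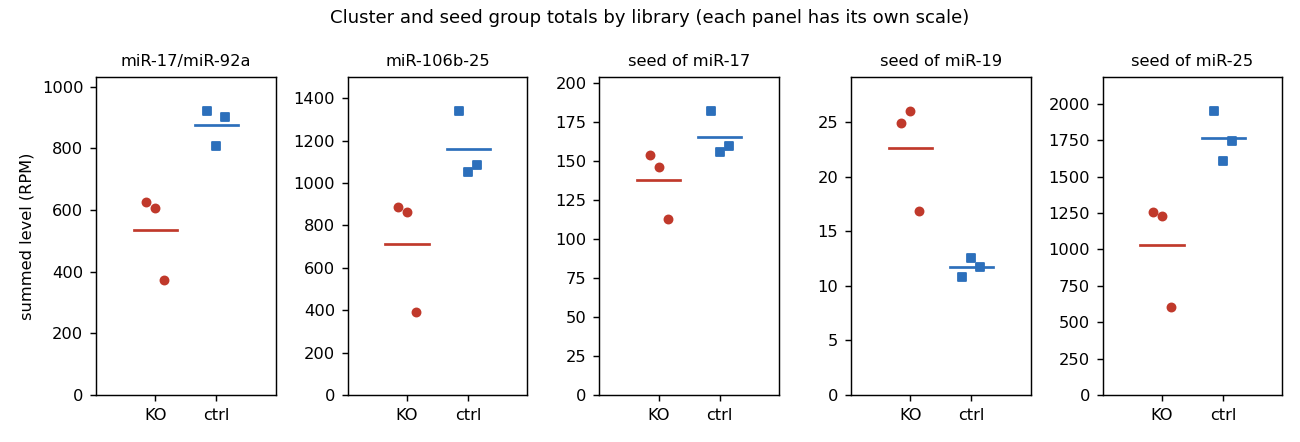
Summed RPM of the clusters (miR-17/miR-92a and miR-106b-25) and of the miR-17, miR-19 and miR-25 seed groups, by library, with knockout (KO, red circles) left of control (ctrl, blue squares), group means as bars and a separate axis from 0 in each panel. The miR-19 seed group, at 16.9 to 26.0 RPM in knockout and 10.8 to 12.6 RPM in control libraries, is the only panel with knockout above control.

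The 3p arm of the miR-106b hairpin outnumbered its 5p arm, the one in the miR-17 seed group. miR-106b-3p had 75.9, 71.2 and 28.8 RPM in knockout vesicles, against 116.8, 78.4 and 72.5 RPM in control vesicles. The groups overlapped, and knockout replicate 3 was the lowest (-0.68 ± 0.34 SE, 95% interval -1.36 to -0.01, limma adjusted p = 0.241; -0.24 without knockout replicate 3). Without the mean-variance trend, the 95% interval for miR-106b-3p was -1.82 to 0.45. The log2 ratio of the 5p to the 3p arm was -3.18, -2.55 and -2.21 in knockout vesicles, against -3.72, -2.33 and -2.68 in control vesicles. The 3p arm was the higher in all 6 libraries, and the ratios overlapped between the groups (exact permutation p = 0.6, with 0.1 the smallest that 3 against 3 libraries allow). The 5p arm averaged under 10 RPM, the minimum set for comparing arm ratios with limma, so it was not among the 36 hairpins of that fit, of which 8.33% passed. With a minimum of 5 RPM, chosen after seeing the data, the difference was 0.26 (95% interval -0.79 to 1.31, limma adjusted p = 0.919), among 54 hairpins of which 0% passed.

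By cluster, both totals were lower in the knockout, with like ratios. miR-17/miR-92a summed to 625, 605 and 373 RPM in knockout vesicles, against 919.98, 806 and 901 RPM in control vesicles, a ratio of means of 0.610. miR-106b-25 summed to 889, 864 and 391 RPM in knockout vesicles, against 1339, 1050 and 1086 RPM in control vesicles, a ratio of 0.617. In both, all knockout libraries were below all control libraries on the deposited scale. After scaling to ordinary annotated miRNAs the ratio was 0.828 for each, and the groups overlapped for miR-106b-25. Without knockout replicate 3, the log2 ratio of means for miR-106b-25 was -0.40, against -0.70 with all libraries. The log2 ratio of the miR-17/miR-92a total to the miR-106b-25 total was -0.36 ± 0.26 in knockout and -0.40 ± 0.14 in control vesicles (SD, n = 3 each), with overlap. miR-92a-3p and miR-25-3p make up most of these sums. Without miR-19b-3p and miR-92a-3p, whose reads may come from chromosome X, the log2 ratio was -3.52 ± 0.57 in knockout and -4.00 ± 0.05 in control vesicles. miR-25-3p stayed in the other total. By library it was -3.77, -3.92 and -2.87 in knockout vesicles, against -4.01, -4.04 and -3.94 in control vesicles. The groups did not overlap, but knockout replicate 2 lay barely above control replicate 3, and knockout replicate 3 lay far above the rest. These totals are descriptions with no test.

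What the reads were scaled to bore on most members. After each library was rescaled to its ordinary annotated miRNAs, the log2 fold changes were -0.40 for miR-25-3p, -0.37 for miR-92a-3p, -0.088 for miR-17-5p and -0.0074 for miR-106b-5p. miR-93-5p turned to 0.28 and miR-20a-5p to 0.14, while miR-19b-3p was at 1.19 (95% interval 0.45 to 1.93, limma adjusted p = 0.0887). None of the 9 passed in that fit. On this scale the median of all tested entries was 0.07, against -0.27 on the deposited scale. The members took 0.341% ± 0.0755 of ordinary annotated miRNA reads in knockout and 0.411% ± 0.0207 in control vesicles, with knockout replicate 1 (0.401%) above control replicate 2 (0.389%).

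**Figure D3:**
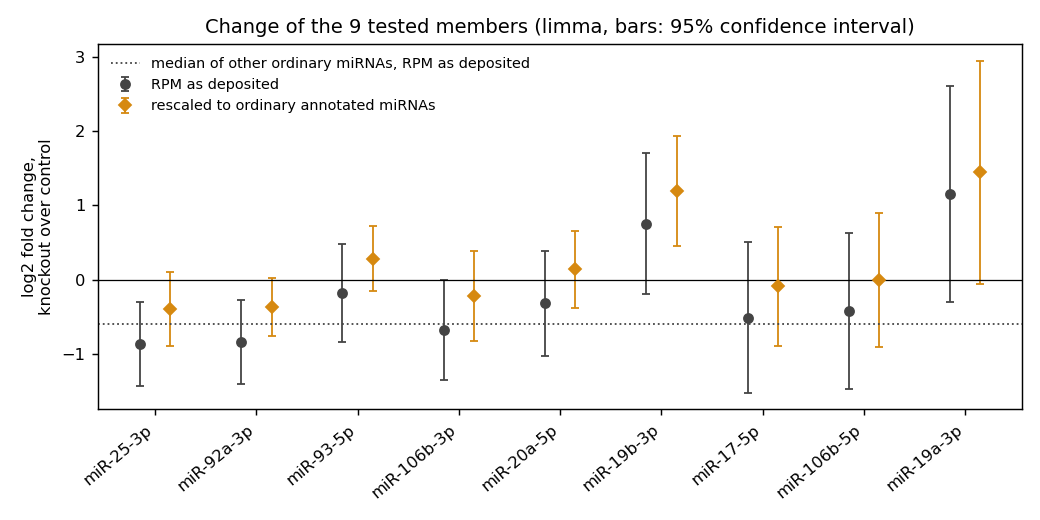
Log2 fold change, knockout over control, of the 9 tested members with 95% confidence intervals from limma, for RPM as deposited (grey circles) and for libraries rescaled to ordinary annotated miRNAs (orange diamonds), with the median of other ordinary miRNAs (-0.60) dotted. On the deposited scale 7 members lie below 0 and the miR-19 arms above it, and rescaling moves each member up.

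Ratios within a library depend on that scale only through the 1 RPM added before the logarithm, which weighs most for the lowest arms. Relative to miR-92a-3p, the most abundant arm of its primary transcript, the log2 level of miR-19b-3p was -4.52, -4.55 and -4.64 in knockout vesicles, against -6.13, -6.11 and -6.25 in control vesicles. The replicates lay close together within each group and far apart between them. The exact permutation p was 0.1, the smallest possible here (0.225 after Benjamini-Hochberg adjustment over 9 pairs). Knockout libraries also lay above control libraries without overlap, at the same p, for miR-17-5p and miR-19a-3p relative to miR-92a-3p and for miR-93-5p relative to miR-25-3p. A limma fit over 1113 entries, each taken relative to miR-92a-3p in the same library, gave miR-19b-3p a difference of 1.59 ± 0.33 (SE, 95% interval 0.88 to 2.30, limma adjusted p = 0.00660). In that fit 8.89% of entries were higher in the knockout and 0% lower, with a median of 0.57, so higher values against miR-92a-3p were common. The pair of miR-19b-3p and miR-92a-3p was chosen after its values were seen, and without the mean-variance trend it no longer passed (limma adjusted p = 0.0590). It passed whichever library was left out, with differences of 1.55 to 1.62 (limma adjusted p from 0.00514 to 0.0361). Since both sequences are also encoded on chromosome X, the pair need not come from a single transcript.

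With 1 RPM added before the logarithm, none of the other arms passed in the same kind of fit against their cluster's main arm. This comparison was also added after the data were seen. Relative to miR-92a-3p, the differences were 0.33 for miR-17-5p (limma adjusted p = 0.653), 0.52 for miR-20a-5p (limma adjusted p = 0.243) and 1.99 for miR-19a-3p (95% interval 0.39 to 3.59, limma adjusted p = 0.127). With a pseudocount of 5, miR-19a-3p did pass (1.31, 95% interval 0.46 to 2.17, limma adjusted p = 0.0282). In that fit 327 of 1113 entries were higher and 3 lower, and miR-19a-3p is near the floor. Relative to miR-25-3p, they were 0.68 for miR-93-5p (limma adjusted p = 0.204), 0.44 for miR-106b-5p (limma adjusted p = 0.684) and 0.18 for miR-106b-3p (limma adjusted p = 0.779). In the fit against miR-25-3p, 4.94% of entries were higher and 0% lower. miR-93-5p to miR-25-3p did not overlap between groups, with log2 ratios of -3.10, -3.08 and -2.31 in knockout vesicles, against -3.61, -3.41 and -3.51 in control vesicles.

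**Figure D4:**
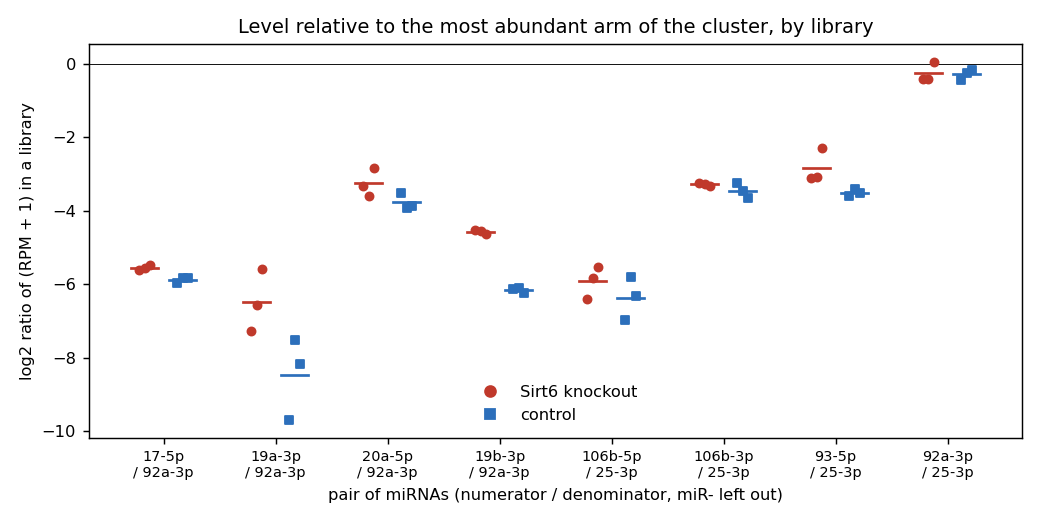
Log2 ratio of (RPM + 1) between pairs of members in each library, with knockout libraries as red circles left of control libraries as blue squares, and group means as bars. For miR-19b-3p over miR-92a-3p the knockout libraries sit at -4.64 to -4.52, above -6.25 to -6.11 in control libraries, while miR-92a-3p over miR-25-3p overlaps.

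Partner arms and the third paralog were close to the floor. Of 8 partner arms of the same hairpins, 7 were listed, 5 were tested and 0 passed, with a median log2 fold change of -0.60 and a highest single value of 10.1 RPM, that of miR-25-5p in control replicate 1. miR-25-5p had 4.35, 2.82 and 1.09 RPM in knockout vesicles, against 10.1, 3.70 and 3.69 RPM in control vesicles (-0.84, limma adjusted p = 0.575). Of 10 arms of miR-106a-363, 6 were listed, 2 were tested and 0 passed. The highest was miR-92a-2-5p, the partner arm of miR-92a-3p at the chromosome X locus, with 6.84, 3.95 and 0 RPM in knockout vesicles, against 3.60, 0 and 1.23 RPM in control vesicles. Its counterpart from chromosome 14, miR-92a-1-5p, had 0, 1.13 and 1.63 RPM in knockout vesicles, against 1.44, 0 and 0 RPM in control vesicles. Both partner arms were too low to tell which locus supplied miR-92a-3p.

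Among 126 other annotated miRNAs averaging 100 RPM or more, those most like the mean log2 level of the 10 members across the 6 libraries were miR-34c-5p (Pearson's r = 0.967), let-7g-5p (0.961), miR-192-5p (0.959) and miR-152-3p (0.943). The median r over the 126 was 0.811, so most abundant miRNAs varied with these clusters across the libraries. The members' mean log2 level was 4.99, 5.05 and 4.45 in knockout libraries, against 4.98, 5.19 and 5.02 in control libraries. Knockout replicate 3 lay far below the rest, so these r values may rest largely on that library. miR-34c-5p, a p53 target, had 2855 ± 646 RPM in knockout and 3687 ± 246 RPM in control vesicles (SD, n = 3 each). None of the 4 passed the test between genotypes (limma adjusted p from 0.114 for miR-152-3p to 0.529 for miR-34c-5p).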

How the data were processed

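Small RNA was sequenced from vesicles of apoptotic osteoblasts in 3 knockout and 3 control libraries, grouped by sample title. The authors deposited 1 table of RPM values, and the submitters' processing notes name fastp and edgeR without roles; the sources used here name no aligner, miRNA annotation or build. The labels' extraction protocol speaks of cells, whereas source names give vesicles. Each column sums to 1000000 RPM over all entries, unnamed ones included. With the lowest non-zero value of a column taken as 2 reads, every value was a whole number of reads (tolerance 0.001 read) and no entry had 1 read. This gives depth but not complete counts, so no count test was run. Without molecular identifiers, floors cover counting error only.

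limma 3.58.1 in R 4.3.3 was fitted on log2(RPM + 1) over all entries that reached 1 RPM in 3 or more libraries. In this fit the prior took nearly all the weight (4456 degrees of freedom), so a member's own spread hardly entered its SE. The fit was also run on simulated data. Those had no shift in what the reads were scaled to and no outlying library, so they check the code only. Totals, orders and ratios were computed in Python 3.11.15, with exact 2-sided permutation tests for single ratios. Hairpin context came from GENCODE M21 and sequences from RefSeq, both on GRCm38.

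The members and lists were chosen with earlier results of these data known. Named entries were the 10 members, their partner arms, miR-106a-363, same-seed entries, and the 4 most alike by Pearson's r. Alternatives covered pseudocount, filter, scaling, limma settings, a replicate block and leaving out each library; those added after seeing the data are said to be so.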

Additional observations from a re-analysis of the deposited data

How the results depend on the processing

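No member was called higher under any setting run. The count of members called lower was 0 with all libraries and the settings above, where 30 of 1114 entries were lower. It was 2 of 7 (miR-25-3p and miR-92a-3p) when only entries averaging 10 RPM or more were tested, where 71 of 355 entries were lower. With quantile normalization it was 1, beside 16 of 1114 entries. It was 0 to 1 when a library was left out. The 1 was seen without knockout replicate 1 (28 of 1011 entries lower), 2 (37 of 999) or 3 (23 of 1006). miR-93-5p turned to 0.10 with scaling to annotated entries, 0.28 with scaling to ordinary miRNAs, 0.0033 with median centring and 0.26 with quantile normalization, and miR-20a-5p to 0.14 with scaling to ordinary miRNAs. As log2 ratios of means, the miR-17/miR-92a total was -0.71, but -0.27 with that scaling and -0.033 as a mean of log2 values, where each arm weighs the same, and the miR-106b-25 total was -0.70, but -0.27 with that scaling and -0.54 as a mean of log2 values. The miR-17 seed group was -0.27, but 0.0017 with scaling to annotated entries and 0.19 with scaling to ordinary miRNAs, and the miR-19 seed group was 0.95, but 1.39 with scaling to ordinary miRNAs. The difference in the log2 ratio between the clusters was 0.034, but 0.51 as a mean of log2 values and 0.48 without miR-19b-3p and miR-92a-3p. These measures weigh the arms differently. The mean of log2 values gives each arm the same weight, and the last measure leaves out miR-92a-3p but keeps miR-25-3p. The arm ratio of miR-106b was -0.14 to 0.55 with a library left out, below 0 without control replicate 1. miR-19b-3p relative to miR-92a-3p kept its value of 1.59 without the trend but no longer passed (limma adjusted p = 0.0590). The SE was then 0.28, against 0.33 with the trend, on 6.57 against 16.1 degrees of freedom. In the fit without the trend 1 of 1113 entries was called higher, against 99 with it. The values showed no sign that the replicate numbers pair the libraries (correlations of deviations 0.0055, -0.024 and 0.011). No knockout library was most like the control library of its number. With 3 libraries a group this cannot settle whether the numbers mark pairs, and the labels do not say. With the replicate block 0 members were called, miR-19b-3p relative to miR-92a-3p passed (1.59, limma adjusted p = 0.0208), and 19 entries were higher and 11 lower, against 24 and 30 without it. The count of all entries called was 0 for limma without trend, and an unadjusted p under 0.05 was then reached by 55 higher and 75 lower entries. Both edgeR fits planned were not run, as complete read counts were not recovered. Members averaging under 11 RPM rest on 22 reads or fewer a library, which limits what could be detected.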

Other observations

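Base composition showed little relation to the change across other miRNAs. The mature miR-19a-3p and miR-19b-3p have 34.8% and 39.1% G and C, miR-25-3p and miR-92a-3p 50.0% and 57.1%. The miR-17 seed group does not stand apart from these, running from 39.1% for miR-20a-5p, the same as miR-19b-3p, to 52.2% for miR-93-5p. Over 214 other ordinary annotated miRNAs that averaged 10 RPM or more and had a RefSeq sequence, Spearman's rho between G and C content and log2 fold change was 0.002 and Pearson's r was 0.103. This is a description across miRNAs, which share libraries and are not independent replicates. Of 16 such miRNAs with at most 35% G and C, 1 lay above 0, beside 42 of the 214. Their median was -0.72, beside -0.60 over the 214. Whether base composition bears on the members was not tested.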
